A study of Mus musculus with 8 samples.

Results

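The genes described here encode the enzymes and carriers that take glucose to pyruvate and exchange pyruvate with lactate. Others encode the enzymes that make acetyl-CoA or oxaloacetate from pyruvate and that turn the tricarboxylic acid (TCA) cycle. Kinases that switch off pyruvate dehydrogenase and cytosolic enzymes that share TCA intermediates are included. The genes were chosen by name, as a list of 49 mouse genes. A row was found for 44 of the 49, all among the 10588 genes tested, and no row carried the name or RefSeq accession of the other 5 (Hk2, Pgk1, Pgam1, Eno1 and Suclg2).

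Cortex RNA was compared between 4 bigenic and 4 nontransgenic mice on a C57BL/6 background. Bigenic mice carried Camk2a-tTa, in which a Camk2α promoter drives the tetracycline transactivator mainly in forebrain neurons, together with a tetracycline-responsive human TDP-43 transgene whose nuclear localization signal is defective (deltaNLS-hTDP-43), so that the human protein was held off by doxycycline and expressed after its removal. Nontransgenic mice came from parents heterozygous for both transgenes, carried neither, and followed the same diet. All 8 mice came off doxycycline when 28 days old and were killed 10 days after that for their right cortex, and 3 of the 4 mice in each group were male. Poly(A)+ RNA was sequenced as single-end reads of 50 bases. No group with Camk2a-tTa alone was analysed here, so effects of the transactivator and of the human protein cannot be told apart.

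Neurons and astrocytes both burn glucose, and brain tissue depends on it. Glycolysis splits 1 glucose into pyruvate in the cytosol. Lactate dehydrogenase, a tetramer of A and B subunits encoded by Ldha and Ldhb, exchanges pyruvate with lactate, which cells pass to each other through monocarboxylate transporters. The pyruvate dehydrogenase complex commits pyruvate to acetyl-CoA and is switched off by the Pdk kinases, while pyruvate carboxylase makes oxaloacetate from pyruvate and so refills the TCA cycle, a reaction best known in astrocytes in brain. In the cycle itself, isocitrate dehydrogenase and 2-oxoglutarate dehydrogenase are the regulated dehydrogenases and succinyl-CoA ligase makes a nucleoside triphosphate directly.

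The deposited values are whole numbers scaled to a similar total in each mouse (20.1 M to 22 M) and are called normalized counts. On the first principal component, which held 58.9% of the variance of the genes tested, the nontransgenic mice lay between -26.5 and -14.0 and 3 bigenic mice between 12.8 and 15.1, whereas the other bigenic mouse lay at 46.0. On the second component (19.5%) that mouse lay at -22.3 and the 3 other bigenic mice between 15.0 and 15.9. There the nontransgenic mice ran from 0.98 to -16.4, the lowest being the nontransgenic mouse listed last. The bigenic mouse at 46.0 also had the fewest reads on genes among the 6 mice whose depth could be estimated (10.6 M, against 15.2 M to 31.9 M). It was the highest or the lowest of the 8 mice for 35 of the 44 genes. It was singled out on all genes tested, and the share of all genes for which it was extreme was not computed. It is called the mouse that stood apart, its value is given last among the bigenic mice, and each result was also computed without it. As a check of the groups, the transcript added for the human transgene read 32947, 41550, 39690 and 29375 normalized counts in bigenic mice and 5 to 80 in nontransgenic mice, while endogenous Tardbp was lower in bigenic mice (log2 difference -0.33, limma adjusted p = 0.00645). Because whole cortex was sequenced, fewer cells of a type and less RNA per cell cannot be told apart in any value below.

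Of the 44 genes, 3 were higher and 7 were lower in bigenic mice at a limma adjusted p below 0.05, with p adjusted over all 10588 genes by the Benjamini-Hochberg method. The 10 called genes are 22.7% of the 44, against a background of 35.9% of all genes tested, of which 20.5% were called higher and 15.4% lower. The differences were also small in size, with a median absolute log2 difference of 0.19 for the 44 genes and 0.25 for all genes, and with median signed differences of -0.03 and 0.03. The share called was thus below that of all genes, and that difference was not tested. The genes past the threshold were the pyruvate carboxylase Pcx, Ogdh and Idh3a on the higher side, and Ldha, Ldhd, Sucla2, Pdha1, Idh1, Mdh2 and Pdk1 on the lower side. The groups did not overlap for 13 of the 44 genes, or 29.5% of them, against 39.0% of all genes, and 9 of the 10 called genes were among those 13, Pdk1 being the exception. A gene was tested if any mouse reached 10 RPM (normalized counts per 1 M of its column total), and 2 of the 44, Ldhd and Gapdh, did so in nontransgenic mice only. Where 10 RPM was required in every mouse, neither was tested and 3 genes were higher and 6 were lower.

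**Figure D1:**
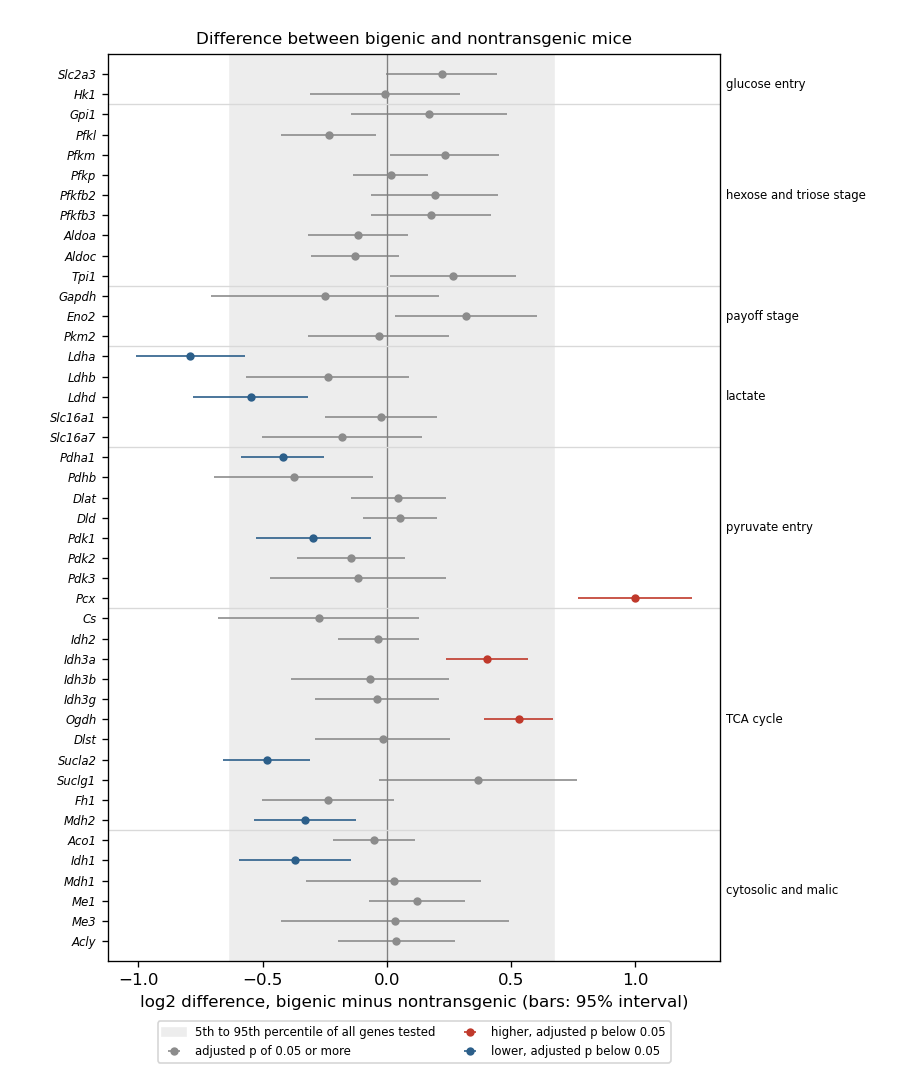
Log2 difference between bigenic and nontransgenic mice (x axis) for each of the 44 genes, grouped by role. Points are limma estimates, bars are 95% intervals, red and blue mark genes higher and lower at an adjusted p below 0.05, and the grey band spans the 5th to 95th percentile of all genes tested (-0.63 to 0.67). Pcx (1.0) and Ldha (-0.79) lie outside the band and no gene of glucose entry, the hexose and triose stage or the payoff stage is coloured.

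Without the mouse that stood apart, 14 of the 44 genes (31.8%) were called, 4 higher and 10 lower, against 45.6% of the 10481 genes then tested, and all 10 genes called with 8 mice remained called in the same direction. The 4 added were Ldhb, Pfkl and Pdhb on the lower side and Eno2 on the higher side. The plot of differences with and without that mouse shows how far each moved.

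**Figure D2:**
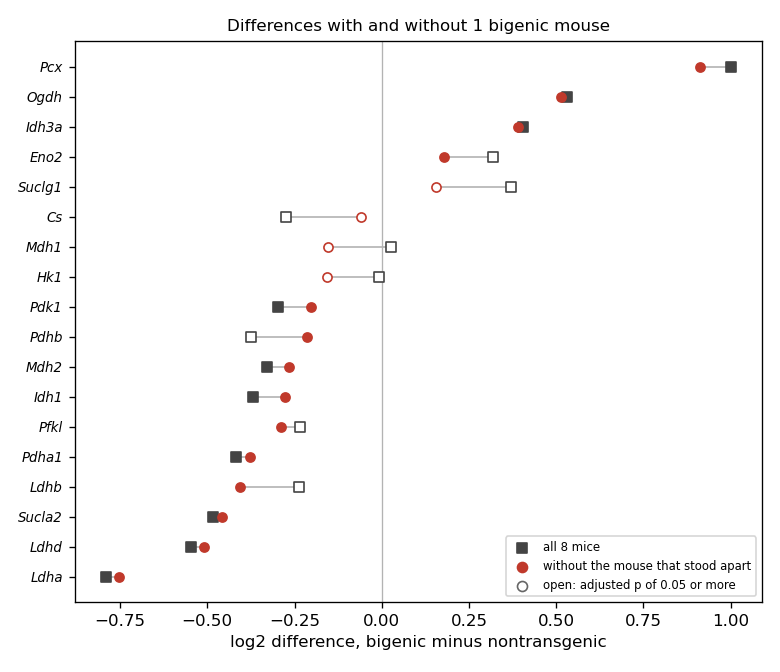
Log2 difference between bigenic and nontransgenic mice (x axis) with all 8 mice (squares) and without the bigenic mouse that stood apart (circles), for the 14 genes called in either fit and for Cs, Suclg1, Hk1 and Mdh1. Filled symbols have an adjusted p below 0.05. Ldhb moved from -0.24 to -0.41 and Cs from -0.27 to -0.06, whereas Ldha (-0.79 to -0.75) and Ogdh (0.53 to 0.51) moved little.

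The authors kept only reads that mapped to 1 place in mm9, so reads from repeated sequence were not counted. Whether this left the 5 genes without a named row was not tested. Several genes of the payoff stage of glycolysis have processed pseudogenes, intronless copies that share the coding sequence. Each stretch of 50 bases within coding exons was therefore looked up in the mm9 genome. For Gapdh, Pgk1 and Pgam1, 0% of these windows occurred once. The coding window of Gapdh with the most copies lies at chr6:125112915-125112964 on the minus strand (mm9), inside an exon, and occurs 84 times in the genome. A coding window of Pgam1 at chr19:41990098-41990147 on the plus strand occurs 4 times. They are shown because a read with either sequence would have been discarded.
Gapdh: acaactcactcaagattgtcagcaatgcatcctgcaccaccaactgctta
Pgam1: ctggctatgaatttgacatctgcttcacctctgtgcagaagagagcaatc

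Among the other 3 genes without a named row, Eno1 had 20.5% and Suclg2 had 38.6% of coding windows occurring once, while Hk2 had 100%. Over the windows of all exons, untranslated parts included, the shares were 79.3% for Eno1, 64.7% for Suclg2, 31.7% for Pgk1 and 8.87% for Pgam1. Gapdh, which had a named row, stood at 49.8%, and it reached the filter in 1 nontransgenic mouse alone (10.6 RPM). A link between these shares and having a named row was not tested. Of the 49 genes, 35 had only coding windows that occur once and 14 had under 95% such windows. Genes that were measured but partly repeated include Me1 (43.3%), Pdhb (52.4%), Pkm2 (59.8%), Ldhb (64.0%), Ldha (73.4%), Gpi1 (73.7%), Tpi1 (81.4%) and Aldoa (85.5%). Their normalized counts can understate the level of the gene, and levels of different genes are not compared here.

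Glucose enters neurons mainly through the transporter encoded by Slc2a3 and is trapped by hexokinase 1 (Hk1). Neither was called. Slc2a3 differed by 0.22 ± 0.10 on the log2 scale (estimate ± SE, n = 4 per group; limma adjusted p = 0.112). Hk1 differed by -0.01 with all mice, and it lay between 6243 and 6398 normalized counts in 3 bigenic mice, 9610 in the mouse that stood apart and 6614 to 7565 in nontransgenic mice. The 3 bigenic mice thus lay below every nontransgenic mouse for Hk1 and the other bigenic mouse above (log2 difference without it -0.16, limma adjusted p = 0.0502).

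The next steps, from glucose-6-phosphate to the triose phosphates, were covered by 9 genes. With 8 mice 0 were called (limma, with 3 at an unadjusted p below 0.05), against 35.9% of all genes tested. Phosphofructokinase, the committed step, has liver, muscle and platelet subunits encoded by Pfkl, Pfkm and Pfkp. Pfkl read 2153, 1825, 1843 and 2250 normalized counts in bigenic mice and 2317 to 2415 in nontransgenic mice, without overlap (log2 difference -0.23, limma adjusted p = 0.0571, and -0.29 with 0.00649 without the mouse that stood apart). Pfkm differed by 0.23 (limma adjusted p = 0.0878) and Pfkp by 0.02 (95% interval -0.14 to 0.17). The bifunctional enzymes Pfkfb2 and Pfkfb3, which make the fructose-2,6-bisphosphate that activates phosphofructokinase, differed by 0.19 and 0.18 (limma adjusted p = 0.214 and 0.226). Phosphoglucose isomerase (Gpi1) differed by 0.17, the aldolases Aldoa and Aldoc by -0.12 and -0.13, and triosephosphate isomerase (Tpi1) by 0.27 (limma adjusted p = 0.368, 0.341, 0.232 and 0.09). Summed over the 9 genes, normalized counts ran from 55794 to 58017 in 3 bigenic mice, 60616 in the mouse that stood apart and 55219 to 58273 in nontransgenic mice.

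The payoff stage, in which glycolysis makes ATP, was covered by 3 of 6 genes. With 8 mice 0 were called (limma, with only Eno2 at an unadjusted p below 0.05), against 35.9% of all genes tested. Gapdh, glyceraldehyde-3-phosphate dehydrogenase, is often used as a reference gene, so its values are given in full. It read 126, 121, 151 and 136 normalized counts in bigenic mice and 117, 216, 189 and 131 in nontransgenic mice. The groups overlapped, and the log2 difference of -0.25 had a 95% interval of -0.71 to 0.21 (limma adjusted p = 0.37). It entered the test through 1 nontransgenic mouse alone (10.6 RPM, against 5.81 to 7.30 RPM in bigenic mice). None of its coding windows occurs once, so reads from its coding sequence could not enter these counts, and they are no measure of the level of Gapdh mRNA. Neuronal enolase (Eno2) read 15237, 16027, 16603 and 23440 in bigenic mice and 13263 to 15267 in nontransgenic mice, with a log2 difference of 0.32 (limma adjusted p = 0.0759) that became 0.18 (0.038) without the mouse that stood apart. Pyruvate kinase (Pkm2), whose symbol covers both muscle isoforms, differed by -0.03 (95% interval -0.32 to 0.25).

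Of the 5 lactate genes, 0 were higher and 2, Ldha and Ldhd, were lower, or 40% called, against 35.9% of all genes tested. Ldhd was tested only because nontransgenic mice reached 10 RPM. The 40% is therefore a description and is not read as a share above that of all genes. Ldha, whose A subunit favours the making of lactate from pyruvate, read 1380, 1840, 1763 and 1485 normalized counts in bigenic mice and 2825, 2728, 2837 and 2728 in nontransgenic mice. The groups lay far apart, with 1617 ± 220 in bigenic and 2780 ± 59.7 in nontransgenic mice (mean ± SD, n = 4 each). The log2 difference was -0.79 ± 0.10 (SE), a fold of 0.578, with a limma adjusted p of 0.000352, and it stayed between -0.86 and -0.72 when each mouse was left out in turn. In mm9, Ldha lies at chr7:54096845-54110997 on the plus strand.

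Ldhb, whose B subunit favours the use of lactate, read 4548, 5064, 5077 and 7807 normalized counts in bigenic mice and 6411, 6233, 6726 and 6567 in nontransgenic mice. In 3 bigenic mice it lay below every nontransgenic mouse and in the mouse that stood apart above every one, so the log2 difference was -0.24 with all mice (limma adjusted p = 0.231) and -0.41 without that mouse (0.00039). Ldhd, a mitochondrial dehydrogenase of D-lactate, read 184, 181, 172 and 161 in bigenic mice and 259, 248, 273 and 242 in nontransgenic mice. All 4 bigenic mice lay below all nontransgenic mice (log2 difference -0.55 ± 0.10, limma adjusted p = 0.00325). Ldhd passed the filter on low values through the nontransgenic mice alone (11.5 to 13 RPM, against 7.33 to 9.14 RPM in bigenic mice), so the difference is given as a description and the count of lower lactate genes rests on Ldha. An exon of Ldhd overlaps an exon of Znrf1 on the other strand, and whether reads were assigned by strand is not given in the sources used here. The monocarboxylate transporters Slc16a1 and Slc16a7 differed by -0.02 and -0.18 (limma adjusted p = 0.883 and 0.351). The summed normalized counts of the 5 lactate genes were 7294 to 8215 in 3 bigenic mice, 10647 in the mouse that stood apart and 10503 to 11134 in nontransgenic mice.

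**Figure D3:**
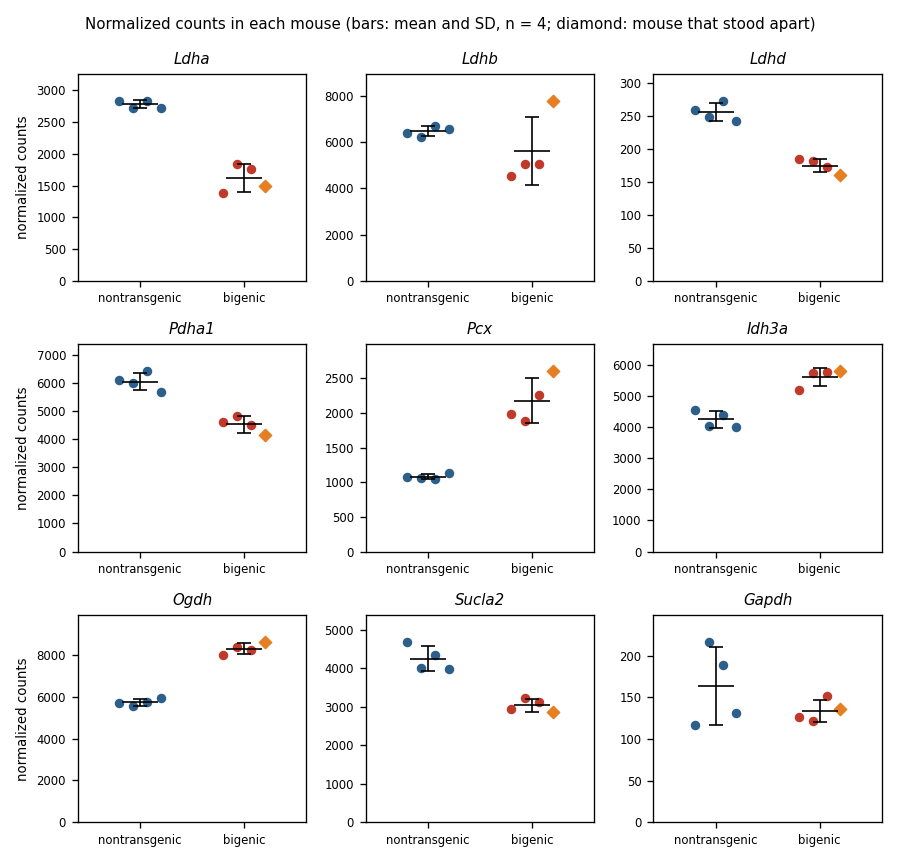
Normalized counts (y axis, from 0) in each nontransgenic and bigenic mouse for the 7 called genes with an absolute log2 difference of at least 0.4 and for Ldhb and Gapdh. Horizontal bars are means, whiskers are SD (n = 4), and the diamond is the bigenic mouse that stood apart. The groups are separate for the 7 called genes, Ldhb is split by the diamond at 7807, and Gapdh overlaps. Of the 7, Ldhd passed the filter on low values through nontransgenic mice only.

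At the branch where pyruvate becomes acetyl-CoA or oxaloacetate, 1 of 8 genes was higher and 2 were lower. That is 37.5% called, near the 35.9% of all genes tested. Pcx, pyruvate carboxylase, rose more than any other of the 44 genes. It read 1980, 1883, 2253 and 2598 normalized counts in bigenic mice and 1071, 1062, 1052 and 1137 in nontransgenic mice. The lowest bigenic mouse lay well above the highest nontransgenic mouse, and the means were 2180 ± 321 and 1080 ± 38.5 (mean ± SD, n = 4 each). The log2 difference was 1.0 ± 0.10 (95% interval 0.77 to 1.23, limma adjusted p = 0.000124), and it was 0.91 without the mouse that stood apart. In mm9, Pcx lies at chr19:4510472-4621752 on the plus strand.

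Pdha1 encodes the E1 alpha subunit of pyruvate dehydrogenase, the subunit that the Pdk kinases phosphorylate. It read 4618, 4840, 4514 and 4142 normalized counts in bigenic mice and 6119, 5995, 6414 and 5674 in nontransgenic mice. No bigenic mouse reached the lowest nontransgenic mouse (log2 difference -0.42 ± 0.07, limma adjusted p = 0.00233). An exon of Pdha1 overlaps an exon of Map3k15 on the other strand. The E1 beta subunit gene Pdhb differed by -0.37 on the log2 scale without passing the threshold (limma adjusted p = 0.0652) and passed it at -0.21 without the mouse that stood apart (0.0184). The E2 and E3 genes Dlat and Dld differed by 0.05 each (95% intervals -0.14 to 0.24 and -0.10 to 0.20), so a fall of the size seen for Pdha1 lies outside both intervals. Of the kinases, Pdk1 fell by 0.30 on the log2 scale (limma adjusted p = 0.0486), with groups that overlapped and a call in only 3 of the 8 fits that left out 1 mouse, and Pdk2 and Pdk3 differed by -0.14 and -0.12 (limma adjusted p = 0.272 and 0.595).

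The promoters of the genes with the strongest fall and rise among the 44 are shown because Ldha and Pcx moved in opposite directions while both hold the letters ACGTG, the core shared by the hypoxia response element and by many E-boxes. The 250 bases before the first annotated start come from RefSeq (GRCm38.p6), on the plus strand, at chr7:46845554-46845803 for Ldha and chr19:4510222-4510471 for Pcx. Matches to ACGTG on either strand (CACGT when read on this strand) are in capitals, and a CACGTG counts as 1 site.
Ldha: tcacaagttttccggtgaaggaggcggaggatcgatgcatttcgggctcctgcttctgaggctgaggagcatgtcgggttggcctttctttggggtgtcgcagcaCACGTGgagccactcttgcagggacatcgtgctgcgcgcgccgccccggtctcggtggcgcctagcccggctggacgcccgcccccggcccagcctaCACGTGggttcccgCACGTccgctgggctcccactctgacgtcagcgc
Pcx: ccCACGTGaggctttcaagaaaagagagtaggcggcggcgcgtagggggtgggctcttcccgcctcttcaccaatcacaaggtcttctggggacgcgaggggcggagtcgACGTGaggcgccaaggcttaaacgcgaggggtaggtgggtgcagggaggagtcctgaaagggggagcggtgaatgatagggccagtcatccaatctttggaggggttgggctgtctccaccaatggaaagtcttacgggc

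Ldha has 3 such sites, which begin 145, 48 and 34 bases before the start, and Pcx has 2, which begin 248 and 140 bases before it. The second annotated promoter of each gene has 0. Over all members, 20 of the 46 with a promoter in the table (43.5%) held ACGTG in at least 1 promoter, against 18.5% of 27025 genes. Those 27025 are all genes with a listed promoter, not the genes tested here. A gene with more promoters has more chances to hold the letters (Ogdh has 6), and the number per gene was not matched. The 2 shares are therefore not like for like. Among the called genes with a promoter, 2 of 2 that were higher and 2 of 7 that were lower held it. The 2 higher genes are Pcx, in 1 of 2 promoters, and Ogdh, in 6 of 6, and Idh3a had no promoter in the table. Members that were not called held it too, among them Pfkm, Pfkfb3 and Mdh1. A link between these letters and the direction of a gene was not tested. These are matches of letters, not sites at which binding was measured.

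Of the 11 TCA cycle genes measured, 2 were higher and 2 were lower, or 36.4% called, near the 35.9% of all genes tested. Their summed normalized counts overlapped between groups (36657 to 39608 in 3 bigenic mice, 34679 in the mouse that stood apart and 34583 to 38080 in nontransgenic mice). Ogdh, the E1 subunit of 2-oxoglutarate dehydrogenase, read 7985, 8369, 8211 and 8603 normalized counts in bigenic mice and 5678, 5568, 5738 and 5956 in nontransgenic mice. Both groups were tight and far apart (log2 difference 0.53 ± 0.06, limma adjusted p = 0.00027). In mm9, Ogdh lies at chr11:6191636-6256645 on the plus strand. The E2 subunit gene of the same complex, Dlst, differed by -0.02 (95% interval -0.29 to 0.26), and the E3 gene Dld, which it shares with pyruvate dehydrogenase, is given above.

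Idh3a, the catalytic subunit of the NAD-dependent isocitrate dehydrogenase, read 5189, 5742, 5772 and 5789 normalized counts in bigenic mice and 4551, 4038, 4387 and 4016 in nontransgenic mice. The lowest bigenic mouse was above the highest nontransgenic mouse (log2 difference 0.41 ± 0.07, limma adjusted p = 0.00268). In mm9, Idh3a lies at chr9:54434288-54452468 on the plus strand. The regulatory subunit genes Idh3b and Idh3g differed by -0.07 and -0.04 (95% intervals -0.39 to 0.25 and -0.29 to 0.21), and the NADP-dependent mitochondrial enzyme Idh2 by -0.03 (95% interval -0.20 to 0.13).

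Sucla2, the ATP-forming beta subunit of succinyl-CoA ligase, read 2931, 3221, 3116 and 2877 normalized counts in bigenic mice and 4676, 3996, 4332 and 3991 in nontransgenic mice. All bigenic mice were below all nontransgenic mice (log2 difference -0.48 ± 0.08, limma adjusted p = 0.00146). In mm9, Sucla2 lies at chr14:73925126-73995949 on the plus strand. Its partner, the alpha subunit gene Suclg1, read 2074, 1867 and 1841 in 3 bigenic mice, 3472 in the mouse that stood apart and 1676 to 1767 in nontransgenic mice, without overlap (log2 difference 0.37, limma adjusted p = 0.132, and 0.16 with 0.0651 without that mouse). Mitochondrial malate dehydrogenase (Mdh2) fell by 0.33 on the log2 scale (limma adjusted p = 0.0199), without overlap, and lost the call without the first (adjusted p = 0.0606) or the third nontransgenic mouse (0.065). Citrate synthase (Cs) lay between 4531 and 5153 in 3 bigenic mice and at 2722 in the mouse that stood apart, against 4743 to 5301 in nontransgenic mice, and fumarase (Fh1) differed by -0.24 (limma adjusted p = 0.262 for Cs and 0.149 for Fh1).

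Of the 6 cytosolic and malic enzyme genes, only Idh1 was called with 8 mice (16.7%, against 35.9% of all genes tested). It encodes the cytosolic NADP-dependent isocitrate dehydrogenase and fell by 0.37 on the log2 scale (limma adjusted p = 0.0179), without overlap, and lost the call without the first nontransgenic mouse (adjusted p = 0.0549). Cytosolic malate dehydrogenase (Mdh1) lay between 12249 and 13528 normalized counts in 3 bigenic mice, at 21171 in the mouse that stood apart and between 13191 and 15138 in nontransgenic mice (log2 difference 0.03 with all mice, -0.15 without it). The cytosolic aconitase Aco1, the malic enzymes Me1 and Me3 and the citrate-cleaving Acly, which supplies acetyl-CoA for lipid synthesis, differed by -0.05, 0.12, 0.03 and 0.04 (limma adjusted p = 0.614, 0.297, 0.914 and 0.79).

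Ratios of paired isoenzymes were compared within each mouse, since such a ratio does not depend on the scaling of the library. Of 13 pairs planned, 10 had both members measured. Each was tested with an exact two-sided permutation test over the 70 arrangements of 4 and 4 mice, whose smallest possible p is 0.0286, and p-values were adjusted over the 10 ratios. None passed an adjusted p of 0.05, and 3 reached the smallest exact p (exact permutation test, adjusted p = 0.0952 for each). After adjustment a ratio could pass only if most of the 10 reached that smallest p. The lack of a call therefore says little about any 1 ratio. These were Pfkl over Pfkm (log2 ratio lower by 0.47 in bigenic mice), Ldhb over Ldha (higher by 0.55) and Idh2 over Idh1 (higher by 0.34).

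The log2 ratio of Ldhb to Ldha was 1.72, 1.46, 1.53 and 2.39 in bigenic mice and 1.18, 1.19, 1.24 and 1.27 in nontransgenic mice. Every bigenic mouse had the higher ratio of B to A subunit transcripts, and the difference was 0.35 without the mouse that stood apart. The log2 ratio of Pfkl to Pfkm was -1.82, -1.90, -1.93 and -2.02 in bigenic mice and ran from -1.52 to -1.38 in nontransgenic mice. That of Idh2 to Idh1 was -0.59, -0.59, -0.51 and -0.18 in bigenic mice and ran from -0.88 to -0.70 in nontransgenic mice. Differences in the other 7 ratios ran from -0.36 (Mdh2 over Mdh1) to 0.18 (Pdk3 over Pdk1), with exact permutation p from 0.0571 to 0.971.

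**Figure D4:**
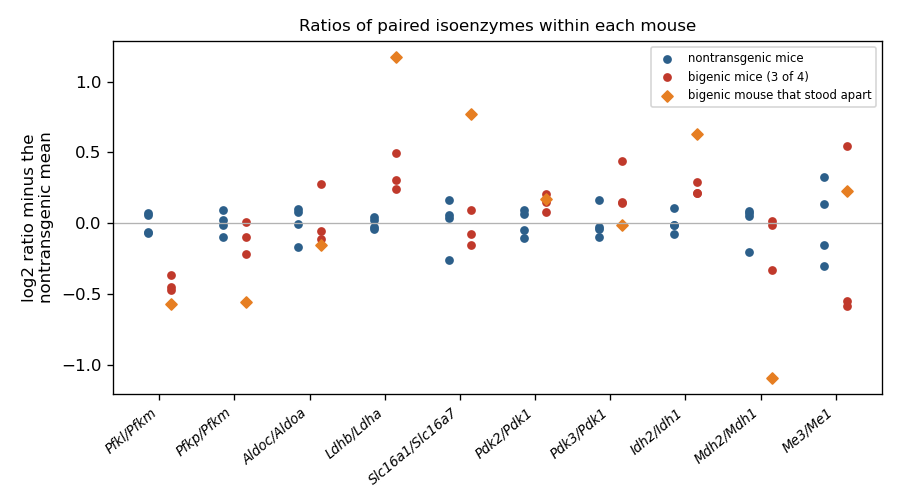
Log2 ratio of 2 isoenzyme transcripts in each mouse minus the mean of the nontransgenic mice (y axis) for the 10 pairs measured. Blue points are nontransgenic mice, red points are 3 bigenic mice and orange diamonds are the bigenic mouse that stood apart. The groups are separate for Pfkl/Pfkm, Ldhb/Ldha and Idh2/Idh1.

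The other genes of these and neighbouring pathways were taken from lists and described by counts. Over the 5 lists together, 13 of 77 genes tested were higher and 20 were lower, or 42.9% against the background of 35.9%. Of the 33 called, 3 (Pdp2, Epm2a and Egln3) passed the filter only through the group in which they were higher, and with 10 RPM required in every mouse 12 were higher and 19 lower. Among 25 further glycolytic, pyruvate and TCA genes, 6 were higher and 4 lower. Pdp1, a phosphatase that switches pyruvate dehydrogenase on, fell by 0.68 on the log2 scale (limma adjusted p = 0.00173). Pdp2, another such phosphatase, went the other way and rose by 0.56 (limma adjusted p = 0.0134). Its rise is a description, since it passed the filter through bigenic mice only. Sdha, the flavoprotein of succinate dehydrogenase, fell by 0.51 (limma adjusted p = 0.00204). The transcript named 9630033F20Rik, which is Tigar, a fructose-2,6-bisphosphatase, rose by 0.60 (0.0024) and Ogdhl, a brain paralogue of Ogdh, rose by 0.35 (0.00427).

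Of 10 genes of the redox shuttles and the glutamate link, 1 was higher and 6 were lower, or 70% called, the largest share among the 5 lists. Of all genes tested, 35.9% were called, 20.5% higher and 15.4% lower. The list is short and was chosen with earlier results of these data known, and the difference in share was not tested. Mitochondrial glycerol-3-phosphate dehydrogenase (Gpd2) was 2083 ± 188 in bigenic and 4123 ± 37.5 in nontransgenic mice (mean ± SD normalized counts, n = 4 each; log2 difference -0.99, limma adjusted p = 3.47e-05), and its cytosolic partner Gpd1 fell by 0.59 (0.000568). Mitochondrial aspartate aminotransferase (Got2) rose by 0.46 (limma adjusted p = 0.00265) and was the only gene of the 10 called higher with 8 mice.

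Of 17 glycogen genes, 2 were higher and 4 lower, or 35.3% called, against 35.9% of all genes tested. Pgm2l1, glucose-1,6-bisphosphate synthase, was 10308 ± 758 in bigenic and 20789 ± 723 in nontransgenic mice (mean ± SD normalized counts, n = 4 each; log2 difference -1.01, limma adjusted p = 2.46e-05). The phosphorylase kinase subunit Phkb and the laforin gene Epm2a fell by 0.57 and 0.76 on the log2 scale and glycogen synthase 1 (Gys1) rose by 0.42 (limma adjusted p = 0.000657, 0.00504 and 0.00957). Epm2a reached 10 RPM in 1 nontransgenic mouse alone (10.5 RPM), so its fall is a description. Of 7 pentose phosphate genes, G6pdx (0.31) and Tkt (0.22) were higher and Taldo1 fell by 0.52 on the log2 scale (limma adjusted p = 0.0267, 0.043 and 0.0198). These 3 calls were 42.9% of the list. Of the 8 fits that left out 1 mouse, G6pdx was called in 3, Tkt in 2 and Taldo1 in 6. Of 18 genes listed as targets or parts of the hypoxia response, 2 were higher and 5 lower, or 38.9% called. Egln1, Bnip3l and Ndrg1 fell by 0.66, 0.63 and 0.42 on the log2 scale and Mxi1 rose by 0.52 (limma adjusted p = 0.000156, 0.00529, 0.00701 and 0.0207), and Hif1a, the oxygen-regulated subunit, differed by 0.08 (adjusted p = 0.515). Mxi1 was called in 5 of the 8 fits that left out 1 mouse.

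Markers of cell types moved in the same libraries, and their part in the differences above was not tested. Their counts stand beside 20.5% higher and 15.4% lower among all genes tested. Of 14 astrocyte markers, 0 were higher and 6 lower, with summed normalized counts of 152964 to 163087 in 3 bigenic mice, 138703 in the mouse that stood apart and 174199 to 189012 in nontransgenic mice. Of 12 neuron markers, 2 were higher and 6 lower (163648 to 168793, 216893 and 205051 to 222763 in the same order). Microglia markers were 0 higher and 5 lower of 10 (6554 to 8135, 6116 and 8231 to 9539), oligodendrocyte markers 1 higher and 0 lower of 11 (70544 to 89887, 67712 and 68722 to 85938) and endothelial markers 0 higher and 2 lower of 10 (5471 to 5640, 5069 and 5347 to 6755). Choroid plexus markers were 5 higher and 0 lower of the 8 measured of 16 (21891 to 30952, 15701 and 8136 to 9415), and Ttr had a log2 difference of 4.34 (limma adjusted p = 0.000109). The other 4 of these 5 (F5, Kl, Clic6 and Prlr) passed the filter only through bigenic mice, so their count is a description. Of the endothelial markers called, Ocln passed only through nontransgenic mice. No erythrocyte marker had a named row.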

How the data were processed

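Adaptors were removed by the authors with cutadapt. Their Bowtie 0.12.7 alignments to mm9 were restricted to reads with 1 best place, and bedtools read counts per exon were added up per gene. The main deposited table holds, for 28662 transcripts and 8 mice, a score: read counts that the authors scaled per mouse and rounded to whole numbers, called normalized counts here (the scaling method is not given in the sources used here). Raw reads were not recovered, so the tests for raw counts that had been planned for that case were not run. In 6 of 8 columns the worth of 1 read could be estimated from regularly missing or doubled whole numbers, and there 3 reads are worth 1.94 to 6.20 normalized counts. In 2 nontransgenic columns it could not be settled. The least-read value of any member in those 6 columns rests on about 66 reads. The other deposited table, made by the authors with DESeq2, holds a mean signal per gene, the log2 change they fitted and their p-values. None of these was used, and the table gave only the symbols of 10601 genes. Columns name a genotype but no replicate number of the labels. Sample columns left unused number 0.

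A gene was kept if any mouse reached 10 RPM of its column total (10588 genes). Values were transformed as log2(normalized count + 1), which understates changes of low genes, and compared with limma 3.58.1 (lmFit, eBayes with trend) in R 4.3.3, two-sided, with the Benjamini-Hochberg adjustment over all genes and a threshold of 0.05. Mice were taken as the replicates. Members and lists were chosen with earlier results of these data known. All members are named. Values in every mouse are given for members past the threshold, without overlap and with an absolute log2 difference of at least 0.4, and for Gapdh. Per-mouse values of other members, and Hif1a, were added after their values were seen. The rule was to name up to 4 genes of each other list, those with the smallest adjusted p. It was followed for the pathway lists, except for 1 gene that is not reported here, but the cell type lists are given by counts, and the markers named there, Pdp2 and Egln3 were chosen after their values were seen. Positions and 50-base windows come from the mm9 genome with GENCODE annotation, and promoters from RefSeq (GRCm38.p6). Python 3.11.15, numpy 2.4.6, pandas 2.3.3, scipy 1.17.1 and matplotlib 3.10.9 were used.

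Alternatives were pseudocounts of 10 and 0.1, no filter, the filter in every mouse, equal column totals, quantile normalization, limma array weights, an adjusted p below 0.01, leaving out each mouse and, chosen after seeing the data, removal of a trend on GC content and length (known for 97.3% of genes).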

Additional observations from a re-analysis of the deposited data

Results flagged for a closer look

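In groups of 4 mice, 10 of 88 groups of values (44 genes, both genotypes) had 1 mouse farther from the rest than Dixon's 95% critical value allows (the gap to the nearest mouse divided by the range), where chance gives about 5% of groups. Of these, 7 were bigenic groups, and in 6 of those 7 the mouse that stood apart was the highest. Hk1 read 9610 normalized counts in that mouse against 6243 to 6398 in the other bigenic mice, and Tpi1 read 11345 against 8082 to 8263. Eno2 read 23440 against 15237 to 16603, and Ldhb read 7807 against 4548 to 5077. Suclg1 read 3472 against 1841 to 2074, and Mdh1 read 21171 against 12249 to 13528. In another bigenic mouse Idh3a was the lowest, at 5189 against 5742 to 5789. All outliers among nontransgenic mice were in 1 mouse, the nontransgenic mouse listed last. In it Slc2a3 was the highest at 4210 against 3559 to 3656, Cs the lowest at 4743 against 5219 to 5301, and Acly the lowest at 3279 against 3446 to 3479.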

How the results depend on the processing

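The 10 called genes kept their direction under every alternative run, and 154 of their 169 alternative values also passed the threshold (Ldhd was not tested with the filter in every mouse). The other 15 belong to Pdk1, Mdh2 and Idh1. Under limma array weights 10 members were higher and 11 lower, against 3 and 7. Quantile normalization gave 6 higher. Without a filter on low values 4 were lower, as at an adjusted p below 0.01. Leaving out each mouse gave 3 to 4 higher and 4 to 10 lower. The lowest count of 4 came without the first nontransgenic mouse, when Idh1 (adjusted p = 0.0549), Mdh2 (0.0606) and Pdk1 (0.122) were lost. Mdh2 was also lost without the third nontransgenic mouse (0.065), and Pdk1 without 5 of the 8 mice. Mdh1, not called, changed sign under array weights, to -0.15 on the log2 scale (adjusted p = 0.041). In all, 12 members changed sign under at least 1 alternative, Mdh1 among them, and none of the 12 was called with 8 mice.

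For the 5 pathway lists, genes higher numbered 13 and genes lower 20. Array weights gave 20 and 31, no filter 6 and 13, and an adjusted p below 0.01 gave 4 and 12. Leaving out each mouse gave 6 to 17 higher and 12 to 26 lower, with 6 higher without the first, the second or the third nontransgenic mouse, 8 without the second or the third bigenic mouse, and 12 lower without the third and 13 without the second nontransgenic mouse. The causes were not tested, except that leaving out a mouse leaves fewer samples. The ratio of Aldoc to Aldoa changed sign, to 0.0053, under quantile normalization, and neither value passed a test. No paired analysis was possible because the columns carry no replicate number of the labels. The depth estimate could not be settled for 2 mice.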

Other observations

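A second transcript with the symbol Aldoa, listed with a non-coding accession, read 114, 264, 266 and 85 normalized counts in bigenic mice (the mouse that stood apart last) and 212 to 269 in nontransgenic mice, with a log2 difference of -0.56 (limma adjusted p = 0.225) that was -0.26 without that mouse.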
